A study of Mus musculus with 32 samples.

Results

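A set of 10 genes of late epidermal differentiation were followed in mouse epidermis, namely the transglutaminases Tgm1, Tgm3 and Tgm5, the peptidylarginine deiminases Padi1 and Padi3, the proteases Casp14 and Asprv1, and the secreted suprabasal proteins Krtdap, Sbsn and Dmkn. They were taken by symbol and made up 10 of the 55401 gene identifiers counted. RNA was sequenced from the epidermis of 32 mice, in 8 groups of 4, formed by sex (male or female), genotype (WT or KO) and treatment (Control or UV). All mice were hairless animals of a mixed SKH-1/SV129/BL6/J background aged 10 to 14 weeks. The KO mice carried PPARD-/-, which removes the nuclear receptor PPARbeta, a fatty acid sensor encoded by Ppard, and the WT mice were their littermates. UV mice had received a single dose of 120 mJ/cm2 to the dorsal skin and were sampled 24 h later, whereas Control mice had not been irradiated. The epidermis was peeled from the dermis before RNA extraction, so each library mixed all epidermal layers with whatever follicle, gland, immune or dermal cells came along. The comparisons asked how acute UV changed these genes, whether the loss of PPARbeta altered that change, and whether male and female epidermis differed.

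As keratinocytes leave the basal layer and reach the granular layer, they build a protein shell under the plasma membrane and pack keratin filaments into a dense matrix. Transglutaminases join proteins such as loricrin, involucrin and the small proline-rich proteins into this cornified envelope by glutamine-lysine bonds. Deiminases turn arginine into citrulline in keratins, filaggrin and trichohyalin, which loosens these proteins for further processing, while Casp14 and Asprv1 take part in the cleavage of profilaggrin and filaggrin. Krtdap, Sbsn and Dmkn are proteins that suprabasal keratinocytes secrete, and UV exposure of the skin is known to disturb differentiation and barrier formation.

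Sequencing gave between 22919428 and 40653581 reads on genes per mouse, with a median of 27600228.5. Levels are given as cpm, a gene's reads scaled to a common library total, after TMM scaling, which adjusts that total for composition, and every adjusted p below is a Benjamini-Hochberg value over 15546 genes from the edgeR quasi-likelihood test, with 0.05 as threshold. Ppard was counted in every library. It measured 95.5 ± 6.08 cpm in WT controls and 79.8 ± 6.87 cpm in KO controls (SD, n = 8 each), a log2 difference of -0.26 ± 0.07 (SE) with an adjusted p of 0.155. After UV it reached 282 ± 24.7 cpm in WT and 210 ± 25.7 cpm in KO mice, where it was lower in KO without overlap (log2 difference -0.42 ± 0.07, adjusted p = 0.00106). Counts per gene do not show which exons the remaining Ppard reads cover, so the KO groups are named by their labels.

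Markers of several cell types moved with UV. The summed level of the suprabasal markers Krt1, Krt10, Krt2, Krt77, Lor and Flg lay between 63869 and 105644 cpm in the 16 control mice and between 4755 and 24775 cpm in the 16 UV mice, with no overlap. Basal markers (6 genes) summed to 5321 to 16276 cpm in controls and 16588 to 29500 cpm after UV. Krt14 and Krt5 made up most of this sum (means of 11448 and 3893 cpm over all mice, against at most 750 cpm for the others). The basal markers did not move as a set, with 3 called higher and 2 lower in WT mice, and 4 higher and 1 lower in KO mice. Neutrophil and monocyte markers (5 genes) summed to 11.8 to 150 cpm in controls and 623 to 1626 cpm after UV, with 4 called higher in WT and 5 in KO mice. S100a8 and S100a9 made up most of this sum (means of 209 and 275 cpm over all mice, against at most 31.6 cpm for the others). T cell markers (6 genes) summed to 93.8 to 201 cpm in controls and 18.2 to 77.5 cpm after UV, with 5 of 6 called lower in each genotype. All 5 Langerhans cell markers were called lower in each genotype, and of 7 sebaceous gland markers 1 was called higher in WT and 4 in KO mice, and 1 lower in each. In such bulk samples, fewer cells of a type and less RNA per cell cannot be told apart. Skeletal muscle markers (7 genes) ranged from 3.82 to 3563 cpm, and 9 mice, 5 of them irradiated, exceeded 1000 cpm. The 4 control mice among them were all female. The library of female KO UV replicate 2 also held 1982 cpm of dermal fibroblast markers (6 genes), against at most 92.2 cpm in the other libraries. Their part in the results below was not tested beyond the values given without these mice.

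UV changed 7 of the 10 genes in WT epidermis and 8 of 10 in KO epidermis, mostly downwards. In WT mice Tgm1 and Tgm3 rose and Casp14, Asprv1, Padi1, Krtdap and Dmkn fell, while Tgm5, Padi3 and Sbsn did not pass the test. Of all genes tested in WT, 34.5% were called higher and 36.5% lower, so 2 of 10 higher and 5 of 10 lower were close to the background shares. In KO mice Tgm1 alone was called higher, against 37.3% of all genes, and Tgm5, Casp14, Asprv1, Padi1, Krtdap, Sbsn and Dmkn were called lower, against 33.5%. The members had a median log2 change of -0.17 in WT and -0.44 in KO epidermis, and the medians over all genes were -0.01 and 0.09. All 8 control values were separated from all 8 UV values for Tgm1, Tgm3, Asprv1 and Krtdap in WT mice (2 higher and 2 lower, against 21.3% and 22.1% of all genes), and for Tgm1, Casp14 and Asprv1 in KO mice (1 higher and 2 lower, against 18.6% and 16.5%). Together the 10 genes took 2.77% ± 0.151 of gene counts in WT controls and 2.02% ± 0.152 after UV, and 3.0% ± 0.284 in KO controls and 1.91% ± 0.394 after UV (SD, n = 8 each).

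**Figure D1:**
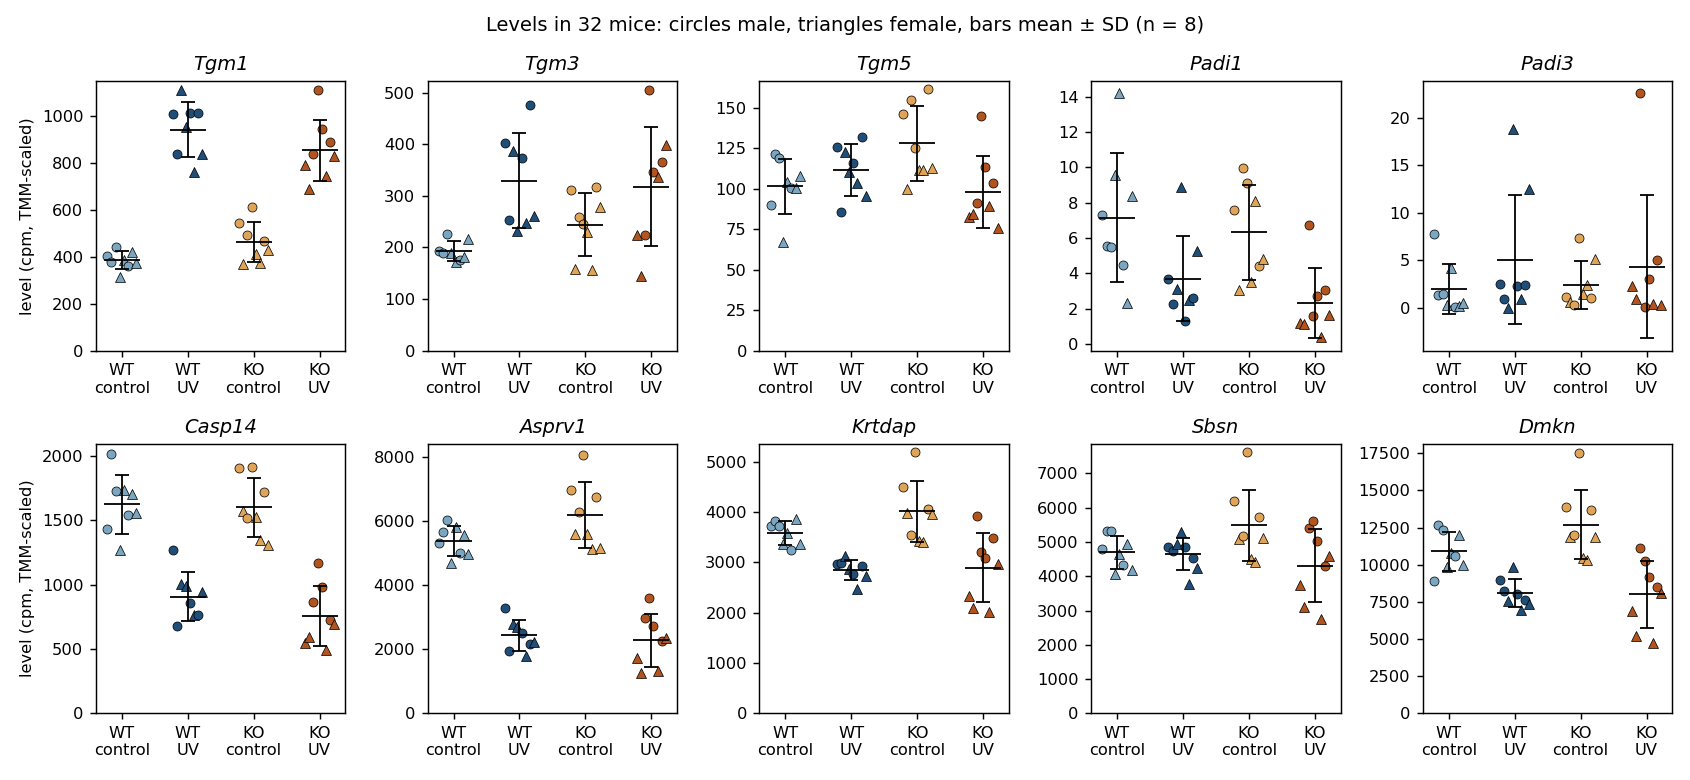
Level of each gene in cpm after TMM scaling (vertical axes, linear) in WT and KO mice, control or 24 h after UV (horizontal axes), with circles for male and triangles for female mice and bars for mean ± SD of 8 mice. Tgm1 stood higher and Asprv1 lower after UV in every mouse of both genotypes, whereas Padi3 spread from 0 to 22.6 cpm within UV groups.

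The transglutaminases differed among themselves. Tgm1 (chr14:55700009-55713926 on GRCm38, minus strand) encodes the membrane-anchored enzyme that starts the envelope. In WT mice it ran from 316 to 442 cpm in controls, with a median of 382, and from 760 to 1108 cpm after UV, with a median of 981. The corresponding KO values were 369 to 611 cpm (median 448) and 690 to 1109 cpm (median 833). Irradiated mice lay above controls in both genotypes, with no overlap. The log2 fold change was 1.29 ± 0.08 in WT (SE, adjusted p = 5.78e-14) and 0.89 ± 0.08 in KO mice (adjusted p = 1.04e-10), that is 2.45-fold and 1.86-fold.

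Tgm3 (chr2:130012349-130050399, plus strand) encodes a soluble enzyme of the epidermis and hair follicle that crosslinks small proline-rich proteins and trichohyalin. It measured 172 to 225 cpm (median 189) in WT controls and 232 to 476 cpm (median 318) after UV. In KO mice the control range of 157 to 317 cpm fell wholly inside the UV range of 144 to 504 cpm. Tgm3 thus rose in WT epidermis by 0.76 ± 0.18 on the log2 scale (adjusted p = 0.00052), with no overlap. In KO epidermis its log2 change of 0.39 ± 0.18 missed the threshold (adjusted p = 0.0577). The lowest KO value after UV, 144 cpm, belonged to the fibroblast-rich library, and without that mouse the KO change was 0.51 with an adjusted p of 0.00697. Without the 9 muscle-rich mice it was 0.65 (adjusted p = 0.00139). It also passed when female KO UV replicate 1, male KO UV replicate 1, female WT UV replicate 3, female KO Control replicate 4 or female WT Control replicate 4 was left out (adjusted p = 0.0437, 0.0303, 0.0489, 0.0237 and 0.0492).

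Tgm5 (chr2:121046111-121085841, minus strand) encodes an envelope enzyme of the upper layers. WT mice showed 67.2 to 121 cpm (median 102) in controls and 85.3 to 132 cpm (median 113) after UV, ranges that overlapped widely. In KO mice the level went from 99.9 to 162 cpm (median 119) to 75.8 to 145 cpm (median 90.2), also with overlap. The KO change of -0.39 ± 0.10 was called lower (adjusted p = 0.00147), whereas the WT change was 0.14 ± 0.10 (adjusted p = 0.230). Leaving out the muscle-rich mice brought the WT change to 0.29, past the threshold (adjusted p = 0.0403).

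Among the other transglutaminases, 4 of 5 listed genes were tested, and in each genotype 2 rose and 1 fell with UV. The shares over all genes were 34.5% higher and 36.5% lower in WT and 37.3% and 33.5% in KO mice. Tgm2, the widely expressed tissue transglutaminase, was scarce at 3.98 ± 2.86 cpm in WT controls and 14.7 ± 8.84 cpm after UV (log2 change 1.99 ± 0.57, adjusted p = 0.00319). F13a1, the coagulation factor XIII subunit made by macrophages and other cells, went from 0.413 ± 0.230 to 2.40 ± 1.71 cpm in WT mice (2.47 ± 0.92, adjusted p = 0.0190). In KO mice F13a1 went from 0.957 ± 1.38 to 61.4 ± 160 cpm, an SD far above the mean. Tgm7 fell in WT mice from 3.82 ± 4.39 to 0.316 ± 0.217 cpm (-3.15 ± 0.59, adjusted p = 3.04e-05).

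The deiminases were read at low counts and varied widely between mice. Padi1 (chr4:140812983-140845778, minus strand), a deiminase of suprabasal keratinocytes, ran from 2.33 to 14.2 cpm (median 6.43) in WT controls and from 1.32 to 8.89 cpm (median 2.84) after UV. In KO mice it ran from 3.06 to 9.95 cpm (median 6.21) and from 0.393 to 6.75 cpm (median 1.61). The groups overlapped in both genotypes, on raw counts of 12 to 358 reads per mouse. Its level fell by 1.01 ± 0.35 on the log2 scale in WT (adjusted p = 0.0111) and by 1.66 ± 0.36 in KO mice (adjusted p = 0.000163).

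Padi3 (chr4:140785365-140810648, minus strand, 2334 bases from Padi1 with no annotated gene between them) is known for deiminating trichohyalin in the hair follicle. Controls held 0.0637 to 7.73 cpm in WT and 0.283 to 7.39 cpm in KO mice. After UV the ranges were 0 to 18.9 cpm and 0.108 to 22.6 cpm. A single mouse, female WT UV replicate 1, had 0 counts, which allows up to 0.109 cpm by counting error alone. The UV changes of 1.15 ± 0.96 in WT and 0.18 ± 0.96 in KO mice did not pass the test (adjusted p = 0.291 and 0.877), and with standard errors of this size neither a rise nor a fall could be shown.

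Padi3 varied with the hair follicle content of the libraries. Its level was highest in the 3 libraries with the highest sum of 9 inner root sheath and medulla genes (465 to 816 cpm) and lowest where that sum was between 5.03 and 25.2 cpm. Over the 32 mice its log2 level had a Pearson r of 0.96 and a Spearman rho of 0.97 with Krt27, an inner root sheath keratin, which was the gene most like it among 8631 compared. Within the 8 groups, with group means removed, r was 0.97. The 9 marker genes showed 1 called higher and none lower with UV in WT mice, and none called in KO mice. Padi1 and Padi3 had r = 0.58 within groups, and the part of follicle content in the Padi1 values was not tested. Of the other deiminases, Padi4, an enzyme abundant in neutrophils, rose with UV in WT mice from 1.91 ± 1.57 to 4.57 ± 2.77 cpm (1.21 ± 0.46, adjusted p = 0.0200) and in KO mice (1.59 ± 0.46, adjusted p = 0.00314), and Padi2 was not called in either genotype.

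**Figure D2:**
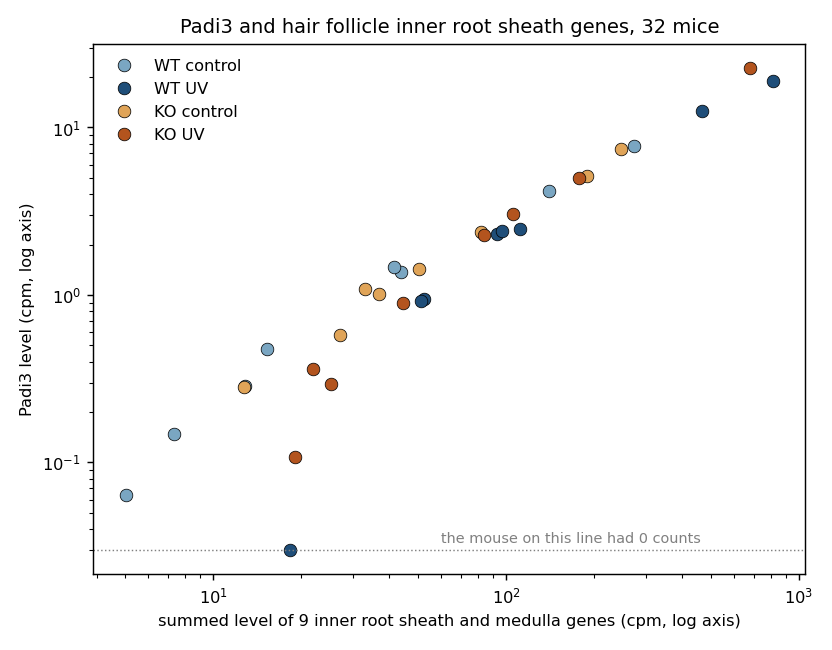
Padi3 level in cpm (vertical, log axis) against the summed level of 9 inner root sheath and medulla genes in cpm (horizontal, log axis), a point per mouse coloured by genotype and treatment. All 4 colours follow a single rising band from 5.03 to 816 cpm of follicle genes, and the mouse with 0 Padi3 counts is drawn at the dotted line.

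The proteases Asprv1 and Casp14 fell in both genotypes. Asprv1 (chr6:86628164-86629710, plus strand) encodes the aspartic protease SASPase, which cleaves the profilaggrin linker. WT controls measured 4689 to 6055 cpm (median 5452), and WT mice after UV 1806 to 3291 cpm (median 2383). KO controls measured 5138 to 8081 cpm (median 5956), and KO mice after UV 1256 to 3601 cpm (median 2316). No irradiated mouse reached the level of any control mouse of its genotype. The log2 change was -1.15 ± 0.13 in WT (adjusted p = 4.50e-09) and -1.49 ± 0.13 in KO mice (adjusted p = 3.37e-11), so that 0.452 and 0.357 of the control level remained.

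Casp14 (chr10:78711991-78718294, minus strand) encodes the caspase of cornifying keratinocytes that acts late in filaggrin breakdown. It lay between 1268 and 2020 cpm (median 1631) in WT controls and between 679 and 1268 cpm (median 898) after UV, the extremes just touching. KO controls spanned 1310 to 1914 cpm (median 1549) and irradiated KO mice 496 to 1171 cpm (median 712), with no overlap. The log2 change was -0.84 ± 0.12 in WT (adjusted p = 2.77e-07) and -1.11 ± 0.12 in KO mice (adjusted p = 1.93e-09).

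Of 13 other proteases listed for filaggrin processing, 11 were tested, and 7 rose and 3 fell with UV in WT mice (34.5% and 36.5% of all genes), whereas 7 rose and 4 fell in KO mice (37.3% and 33.5%). Prss8, Capn1 and Pcsk6 fell in both genotypes, with log2 changes of -0.46 ± 0.09, -0.62 ± 0.06 and -0.79 ± 0.13 in WT mice (adjusted p = 8.45e-05, 1.47e-09 and 3.88e-06), and Klk5 was called lower in KO mice (-0.36 ± 0.11, adjusted p = 0.00607) but not in WT mice (-0.20 ± 0.11, adjusted p = 0.115). The median log2 change of the list was 0.58 in WT and 0.62 in KO mice. Klk7, a kallikrein that cuts corneodesmosomes, rose from 2324 ± 359 to 4621 ± 362 cpm in WT epidermis (0.99 ± 0.08, adjusted p = 8.79e-12). Ctsl, the lysosomal cathepsin L, rose from 591 ± 72.2 to 1428 ± 231 cpm (1.27 ± 0.11, adjusted p = 7.53e-11), and Klk14 rose from 0.440 ± 0.285 to 7.16 ± 3.15 cpm (4.03 ± 0.51, adjusted p = 6.08e-08).

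The secreted proteins Sbsn, Dmkn and Krtdap are encoded side by side on chromosome 7, at chr7:30751471-30756134, chr7:30763756-30781063 and chr7:30787896-30791097, all on the plus strand. The gaps between them were 7621 and 6832 bases, with no annotated gene in between. Within the 8 groups, r was 0.90 for Sbsn with Dmkn, 0.83 for Krtdap with Sbsn and 0.74 for Krtdap with Dmkn over 32 mice, all of which share library depth and composition. Asprv1, on chromosome 6, had like values with Sbsn (0.82) and Dmkn (0.74), and Casp14 with Asprv1 (0.81), so such values were not particular to the neighbours. Their promoters are shown, a choice made after the matches were known, because a motif was found in all 3 neighbours and in none of the other 7 genes. From the RefSeq promoter windows (GRCm38.p6, 250 bases before to 50 after the start), each line gives 150 bases before to 10 bases from the start, 5′ to 3′ on the gene's strand. Capitals mark TATAA and TGANTCA, a string wider than the AP-1 core, which is TGACTCA or TGAGTCA. Sbsn spans chr7:30751321-30751480, Dmkn chr7:30763606-30763765, Krtdap chr7:30787755-30787914 and, for comparison, Tgm1 chr14:55713483-55713642. The RefSeq start used for Tgm1 lay 434 bases from the annotated gene start, so its stretch falls inside the gene span given above. For Sbsn, Dmkn and Krtdap this distance was 0, 0 and 9 bases.
Sbsn: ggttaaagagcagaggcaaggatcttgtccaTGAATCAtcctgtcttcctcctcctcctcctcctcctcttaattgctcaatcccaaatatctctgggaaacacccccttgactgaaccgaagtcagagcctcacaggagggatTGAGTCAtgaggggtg
Dmkn: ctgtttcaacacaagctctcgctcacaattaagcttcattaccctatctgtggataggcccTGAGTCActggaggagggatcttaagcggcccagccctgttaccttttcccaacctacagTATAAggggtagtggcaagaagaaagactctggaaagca
Krtdap: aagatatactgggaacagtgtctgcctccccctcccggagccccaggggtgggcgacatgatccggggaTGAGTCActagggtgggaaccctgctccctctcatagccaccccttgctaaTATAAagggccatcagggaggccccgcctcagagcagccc
Tgm1: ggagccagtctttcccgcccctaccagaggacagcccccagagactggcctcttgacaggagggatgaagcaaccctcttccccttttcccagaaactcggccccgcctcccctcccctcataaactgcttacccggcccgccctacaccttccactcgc

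The upstream Sbsn match reads TGAATCA and is not that core. TGANTCA, searched on both strands, began 119 and 6 bases before the start of Sbsn, 89 before that of Dmkn and 81 before that of Krtdap. It was found in the windows of these 3 of the 10 genes and in 7.81% of all 32851 windows. All 10 genes matched the RefSeq table, with 13 windows, 3 of them for Dmkn and 2 for Tgm1. TATAA occurred in the windows of Tgm3, Krtdap and Dmkn and in 24.9% of all windows. CACGTG, GCCNNNGGC and AACCGGTT occurred in none of the 13 windows and in 7.15%, 16.6% and 0.146% of all windows. A match describes letters only.

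Dmkn encodes dermokine. WT controls measured 8938 to 12643 cpm (median 10680.3) and irradiated WT mice 6928 to 9879 cpm (median 7837). KO controls measured 10339.5 to 17504 cpm and irradiated KO mice 4754 to 11154 cpm. Dmkn fell by 0.43 ± 0.11 on the log2 scale in WT (adjusted p = 0.000734) and by 0.69 ± 0.11 in KO mice (adjusted p = 1.75e-06), with overlap in both. Its transcripts start at several sites, which counts per gene do not separate.

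Krtdap, which encodes keratinocyte differentiation-associated protein, ran from 3250.0 to 3873 cpm (median 3659) in WT controls and from 2479 to 3121 cpm (median 2899.6) after UV, with no overlap. KO mice showed 3398 to 5200 cpm (median 3979) in controls and 2013 to 3929 cpm (median 3029) after UV. The decrease was small in both, with log2 changes of -0.33 ± 0.08 in WT (adjusted p = 0.000768) and -0.49 ± 0.08 in KO mice (adjusted p = 5.45e-06).

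Sbsn, which encodes suprabasin, showed similar ranges in WT epidermis, with 4069 to 5330 cpm (median 4716) in controls and 3778 to 5285 cpm (median 4798) after UV. In KO epidermis it went from 4415 to 7620 cpm (median 5149) to 2745 to 5614 cpm (median 4442). The WT log2 change was -0.01 ± 0.10 (adjusted p = 0.911). The KO change of -0.36 ± 0.10 was called lower (adjusted p = 0.00174), and control and UV values overlapped.

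**Figure D3:**
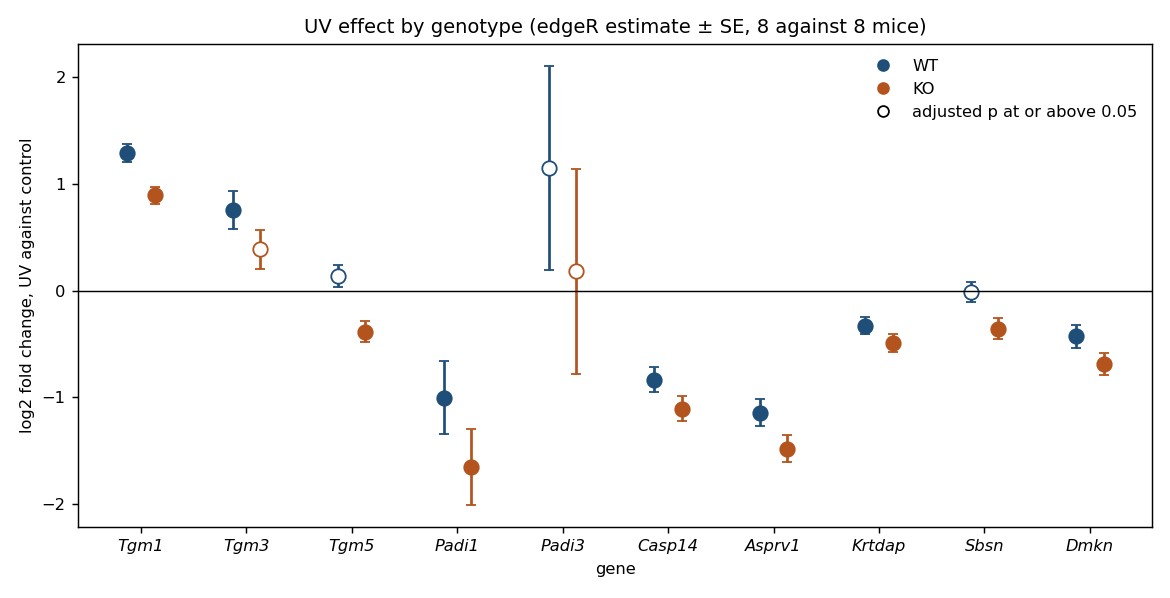
Log2 fold change of UV against control (vertical) for each gene (horizontal) in WT and KO mice, as edgeR estimate ± SE from 8 against 8 mice, with open points where the adjusted p was 0.05 or more. The KO point lies below the WT point for all 10 genes, with differences from -0.16 for Krtdap to -0.97 for Padi3.

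The KO values of the UV change were lower than the WT values for every member, but no single difference passed the test. The difference, KO minus WT, was negative for 10 of 10 genes, with a median of -0.36, whereas the median over all genes was 0.04 and 45.7% of all genes were negative. Among lists of related genes, the median was -0.34 for envelope and filament substrates and -0.31 for junction and lipid genes of the granular layer. It was -0.25 for protease inhibitors, -0.16 for the other filaggrin processing proteases and -0.16 for late differentiation regulators. It was 0.16 for the other transglutaminases and 0.60 for the other deiminases. Negative values were thus not particular to the members. The 10 member values are not independent, since members varied together across mice. None was called, against 0.888% of all genes, and 3 had an unadjusted p under 0.05, against 19.5% of all genes. Tgm5 (-0.52 ± 0.14, adjusted p = 0.0729) and Tgm1 (-0.40 ± 0.11, adjusted p = 0.0802) came closest. For Sbsn, called lower only in KO mice, the difference was -0.34 ± 0.14 (adjusted p = 0.169). DESeq2 on the same counts called 2, Tgm1 (adjusted p = 0.0143) and Tgm5 (adjusted p = 0.0134). The share of 0.888% belongs to edgeR, and that of all genes called by DESeq2 is not given. Leaving out 1 mouse at a time gave adjusted p from 0.0314 to 0.138 for Tgm1 and from 0.0233 to 0.124 for Tgm5, with calls when male WT UV replicate 2, female WT UV replicate 3 or male KO UV replicate 2 was absent.

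Without UV, KO and WT epidermis did not differ by the test in any of the 10 genes, against 0.206% of all genes called. The KO value was higher for 8 genes and lower for Casp14 and Padi1, and 3 genes (Tgm1, Tgm5 and Sbsn) had an unadjusted p under 0.05, against 8.52% of all genes. Tgm5 showed 0.32 ± 0.10 (adjusted p = 0.304) and Tgm1 0.25 ± 0.08 (adjusted p = 0.307). After UV the KO value was lower for 10 of 10 genes and again none was called, against 3.11% of all genes. The median was -0.15 for the members and 0.02 over all genes. It was -0.16 for the envelope and filament substrates, -0.14 for the junction and lipid genes and -0.15 for the inhibitors. It was -0.05 for the regulators, -0.02 for the other proteases, 0.22 for the other transglutaminases and 0.29 for the other deiminases. The 6 dermal fibroblast markers were all called higher in KO mice in this comparison, in which 1 KO library held 1982 cpm of them. Casp14 (-0.30 ± 0.12, adjusted p = 0.140) and Padi1 (-0.84 ± 0.35, adjusted p = 0.176) were the 2 with an unadjusted p under 0.05, against 20% of all genes.

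The genotype difference after UV was also taken within each sex, a comparison added after the values by sex had been seen. In females, Casp14 measured 765, 940.1, 991 and 1006 cpm in WT mice and 496, 546, 591 and 694 cpm in KO mice, with no overlap. Padi1 measured 2.49, 3.09, 5.28 and 8.89 cpm in female WT mice and 0.393, 1.16, 1.17 and 1.63 cpm in female KO mice, also apart. Both were called lower in KO females, with log2 differences of -0.67 ± 0.16 (adjusted p = 0.00996) and -2.19 ± 0.52 (adjusted p = 0.00816), so that 2 of 10 genes were called lower against 1.72% of all genes. Tgm5 was the third gene whose female values were apart, at 95.1 to 123 cpm in WT and 75.8 to 89.3 cpm in KO mice (-0.38 ± 0.14, adjusted p = 0.0948). Non-overlapping lower values were seen in 3 of 10 genes against 4.81% of all genes, and 9 of 10 had an unadjusted p under 0.05, against 24.8%.

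In males the same genes overlapped. Casp14 measured 679, 762, 856 and 1268 cpm in male WT mice after UV and 729, 863, 983 and 1171 cpm in male KO mice. Padi1 measured 1.32, 2.25, 2.59 and 3.71 cpm in male WT mice and 1.59, 2.69, 3.06 and 6.75 cpm in male KO mice. Krtdap alone was apart in males, in the other direction, at 2763 to 2980 cpm in WT and 3098 to 3929 cpm in KO mice. The share of all genes apart in this way in males is not given. None of the 10 genes was called in males, against 0.116% of all genes, none had an unadjusted p under 0.05, against 7.03%, and 7 of 10 values were positive. The difference between the sexes itself was not called for any member, against 0.161% of all genes, with 7 of 10 at an unadjusted p under 0.05, against 14.4%. Padi1 came closest, at -2.70 ± 0.71 for females minus males (adjusted p = 0.0825), and Casp14 stood at -0.74 ± 0.23 (adjusted p = 0.123).

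These female differences rested on few mice. Of the 4 female KO UV libraries, replicate 2 was the fibroblast-rich one and replicates 1 and 2 exceeded 1000 cpm of muscle markers, as did female WT UV replicate 3. Without female KO UV replicate 2, Casp14 (-0.69, adjusted p = 0.0481) and Padi1 (-2.24, adjusted p = 0.0480) were still called. Without the muscle-rich mice Padi1 was called (-2.57, adjusted p = 0.0421) and Casp14 was not (-0.76, adjusted p = 0.0852). Without female WT UV replicate 2, the mouse with the highest Padi1 and follicle gene levels of its group, Padi1 missed the threshold (-1.76, adjusted p = 0.0509). The 9 inner root sheath and medulla genes summed to 816 cpm in that mouse and 465 cpm in replicate 4, second in Padi1. They summed to 18.4 and 51.4 cpm in replicates 1 and 3, and to 21.9 to 84.1 cpm in the 4 female KO UV libraries. The part of follicle content in this Padi1 difference was not tested. Leaving out 1 mouse at a time gave 1 to 6 members called lower in females, with 6 in the absence of female KO UV replicate 4, 5 without male KO Control replicate 3 or male KO UV replicate 1 and 4 without female WT UV replicate 3. For the difference between the sexes it gave 0 to 4, with 4 in the absence of female KO UV replicate 4 and 1 in that of male WT UV replicate 1. The shares of all genes called in these refits are not given, so whether the members changed more than other genes cannot be read from the counts.

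**Figure D4:**
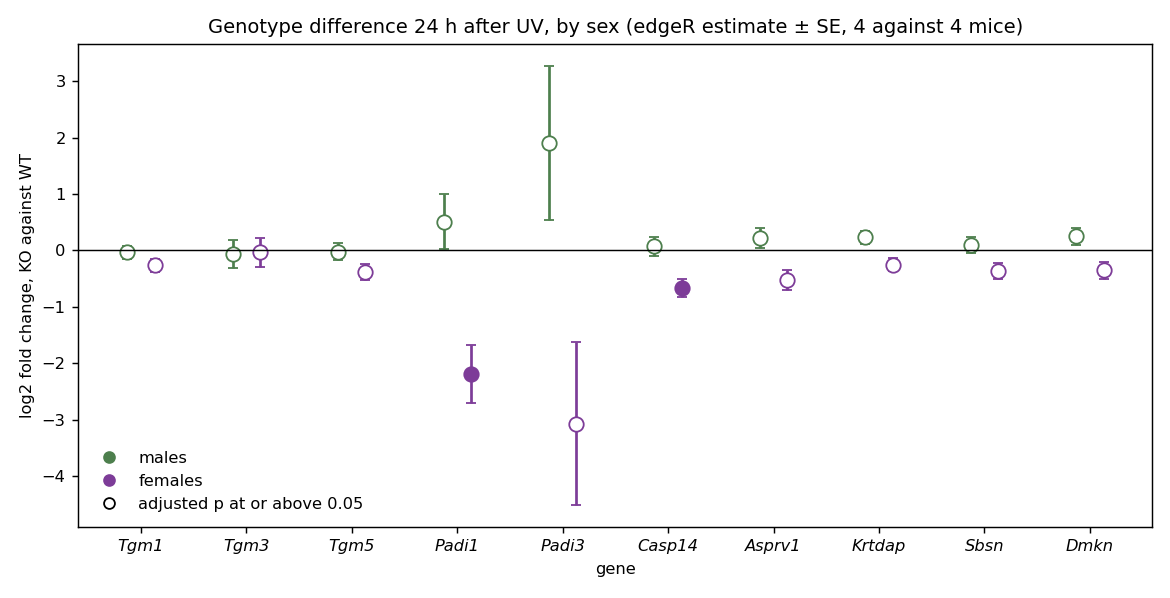
Log2 fold change of KO against WT 24 h after UV (vertical) for each gene (horizontal) in males and females, as edgeR estimate ± SE from 4 against 4 mice, with filled points where the adjusted p was under 0.05. The female values are all below 0, with Casp14 and Padi1 filled, and the male values lie on both sides of 0.

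UV moved the members in the same direction in each sex for the genes with large changes. In WT males 2 of 10 were called higher (29.8% of all genes) and 5 lower (31.1%), and in WT females 1 higher (30.1%) and 4 lower (31.1%). In KO males 1 was called higher (30.8% of all genes) and 6 lower (30.8%), and in KO females 1 higher (34%) and 7 lower (26.6%). Tgm1 changed by 1.29 ± 0.11 in WT males and 1.29 ± 0.11 in WT females, and by 0.84 ± 0.11 and 0.94 ± 0.11 in KO males and females. Asprv1 changed by -1.15 ± 0.18, -1.14 ± 0.18, -1.28 ± 0.18 and -1.69 ± 0.18 in the same order. Padi1 ranged more widely, from -0.80 ± 0.48 in WT females to -2.17 ± 0.52 in KO females. Averaged over genotypes, the UV change differed between the sexes in none of the members and in 0 of all genes by edgeR, and no member had an unadjusted p under 0.05, against 6.98% of all genes.

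Without UV the female value was below the male value for 10 of 10 genes, and none passed the test, against 6.73% of all genes called. For Padi1 the log2 difference was only -0.04. Padi1 averaged 8.62 cpm in female and 5.71 cpm in male WT controls, and 4.88 and 7.77 cpm in KO controls. The median was -0.24 for the members and -0.02 over all genes. It was -0.25 for the envelope and filament substrates, -0.20 for the junction and lipid genes and -0.21 for the inhibitors. It was -0.15 for the regulators, -0.13 for the other proteases, 0.22 for the other transglutaminases and 0.63 for the other deiminases. The smallest adjusted p values were 0.0575 for Tgm1 (-0.25 ± 0.08), 0.0678 for Tgm5 (-0.30 ± 0.10) and 0.0975 for Sbsn (-0.26 ± 0.10), the 3 genes with an unadjusted p under 0.05, against 25.0% of all genes. Tgm1 measured 374 ± 44.1 cpm in female and 396 ± 35.5 cpm in male WT controls, and 396 ± 28.4 cpm in female and 528 ± 63.4 cpm in male KO controls (SD, n = 4 each). Whether this sex difference depended on genotype was not tested. Muscle content went with sex here, since the 4 control libraries above 1000 cpm of muscle markers were all female. These were female KO Control replicates 1 and 2 and female WT Control replicates 2 and 3 (1158 to 3563 cpm). The 7 muscle markers had a median log2 difference of 3.63, female minus male, and none was called. The part of muscle content in the sex values was not tested beyond the fit without the muscle-rich mice. DESeq2 called Tgm1 (adjusted p = 0.0411) and Tgm5 (adjusted p = 0.0484), and its share over all genes is not given. By edgeR, Tgm1 passed without female WT UV replicate 1, female KO Control replicate 4 or female WT Control replicate 3 (adjusted p = 0.0453, 0.0487 and 0.0367), and Tgm5 without male WT Control replicate 1 (adjusted p = 0.0342).

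The genes that these enzymes act on, and those that accompany them, were read from lists. Of 22 envelope and filament substrates, 6 rose and 14 fell with UV in WT mice and 5 rose and 15 fell in KO mice, with median log2 changes of -1.78 and -2.16. The shares over all genes were 34.5% higher and 36.5% lower in WT and 37.3% and 33.5% in KO mice. Lce3c and Sprr1a, envelope proteins known from stressed epidermis, rose from 6.80 ± 5.35 to 443 ± 116 cpm and from 93.7 ± 69.2 to 2014 ± 355 cpm in WT mice. Flg2, a filaggrin relative, fell from 4054 ± 1076 to 162 ± 40.2 cpm (-4.64 ± 0.25, adjusted p = 3.10e-15). Of these substrates, 6 (Krt1, Krt10, Krt2, Krt77, Lor and Flg) are also the suprabasal markers, and 6 of 6 fell in each genotype. The changes of Lce3c (6.04 ± 0.48, adjusted p = 1.77e-11) and Sprr1a (4.45 ± 0.42, adjusted p = 5.01e-10) exceeded those of any transglutaminase member.

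Of 11 inhibitors of proteases or of their control, 4 rose and 5 fell with UV in each genotype, not far from the shares over all genes (34.5% and 36.5% in WT, 37.3% and 33.5% in KO mice). In WT mice Serpinb6c rose from 19.9 ± 5.73 to 109 ± 20.1 cpm (2.46 ± 0.18, adjusted p = 2.14e-12), and Serpinb7 fell from 317 ± 79.9 to 53.5 ± 23.4 cpm (-2.57 ± 0.22, adjusted p = 6.64e-11). Serpinb3a fell from 34.8 ± 31.0 to 9.07 ± 11 cpm (-1.94 ± 0.53, adjusted p = 0.00216). All 3 belong to the serpin family of protease inhibitors, whose members share sequence.

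Among 15 regulators of late differentiation, 7 rose and 5 fell in WT mice, and 6 rose and 6 fell in KO mice, again not far from the shares over all genes (34.5% and 36.5% in WT, 37.3% and 33.5% in KO mice). The transcription factors Ehf (179 ± 31.7 to 612 ± 57.9 cpm, 1.78 ± 0.09, adjusted p = 8.69e-16) and Ovol1 (252 ± 37.4 to 469 ± 58 cpm, 0.90 ± 0.09, adjusted p = 1.01e-09) rose in WT mice. Gata3, another transcription factor of the epidermis, fell from 216 ± 21.9 to 64.4 ± 7.56 cpm (-1.75 ± 0.07, adjusted p = 1.31e-17). Of 16 junction and lipid genes of the granular layer, 8 rose and 4 fell in WT mice, and 8 rose and 6 fell in KO mice, beside the same shares of all genes (34.5% and 36.5%, and 37.3% and 33.5%). Dsc2, a desmocollin, rose from 38 ± 24.8 to 171 ± 83.9 cpm and Cers3, a ceramide synthase, from 195 ± 22.1 to 431 ± 41.9 cpm, while Dsg1a, a desmoglein, fell from 2766 ± 599 to 1147 ± 159 cpm. The changes of these 3 in WT mice were 2.16 ± 0.49, 1.14 ± 0.08 and -1.27 ± 0.12 (adjusted p = 0.00033, 4.88e-13 and 2.58e-10). No gene of any of these lists was called for a genotype difference or for the genotype by UV interaction.

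Levels of different genes were compared only per kb of exon. In WT controls Krtdap led with 5287 ± 349 cpm per kb, followed by Dmkn with 4969 ± 599, Asprv1 with 3486 ± 303 and Sbsn with 1296 ± 133 (SD, n = 8). Krtdap and Dmkn were not apart from each other, at 4786 to 5704 and 4077 to 5768 cpm per kb. Casp14 (678 ± 94.6 cpm per kb), Tgm1 (122 ± 12.3), Tgm3 (46.6 ± 4.55) and Tgm5 (32.1 ± 5.42) followed, each range below the one before, and Padi1 (1.91 ± 0.969) and Padi3 (0.569 ± 0.780) came last with overlapping ranges. This order of the means was kept in KO controls. After UV it was the same except for Padi1 and Padi3, which changed places in both genotypes. By UV, Asprv1 moved from 3031 to 3914 cpm per kb in WT controls to 1167 to 2127, which overlapped with Sbsn at 1042 to 1458.

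**Figure D5:**
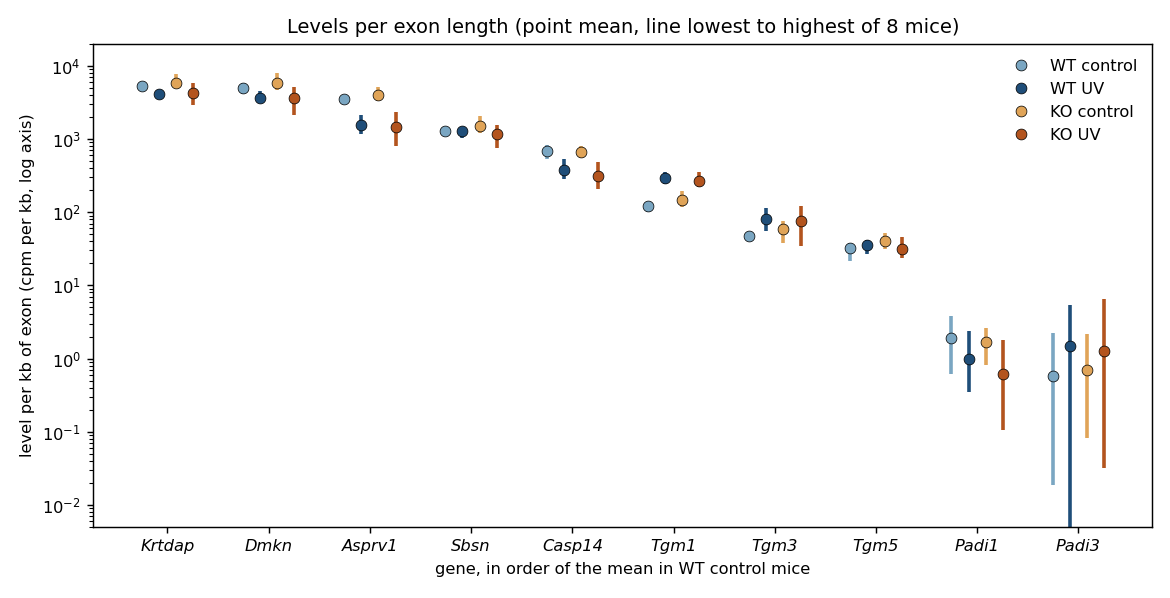
Level per kb of exon in cpm (vertical, log axis) for each gene (horizontal, in order of the WT control mean), with points for the mean and lines from the lowest to the highest of 8 mice in each genotype and treatment. Krtdap and Dmkn stood at the top and Padi1 and Padi3 at the bottom, and the line of Padi3 in WT UV mice runs off the axis because its lowest value is 0.

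For each member, the gene with the closest pattern over the 32 mice was taken among genes with a mean of at least 10 cpm. These correlations span control and UV mice, which share library depth and composition. With group means removed, r for the same pairs ranged from 0.40 for Padi1 to 0.97 for Padi3. Tgm1 was closest to St14 (r = 0.98), the membrane protease matriptase, and Tgm3 to Blmh (r = 0.81), a hydrolase of filaggrin peptides, both of which belonged to the protease list. Asprv1 was closest to Kprp (r = 0.98), an epidermal keratinocyte protein, and Casp14 to Asprv1 (r = 0.97), and this pair had r = 0.81 within groups. Krtdap was closest to its neighbour Dmkn (r = 0.94), Dmkn to Fndc9 (r = 0.95) and Sbsn to Gltp (r = 0.89), a glycolipid transfer protein. Tgm5 was closest to Limk2 (r = 0.83), a kinase of actin regulation, and Padi1 to Cpm (r = 0.78), a carboxypeptidase, for which r within groups was only 0.40. Within groups, Padi3 and Padi1 had their lowest values with Tgm3 (r = -0.37 and -0.30).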

How the data were processed

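RNA from the epidermis of 32 mice was sequenced as stranded mRNA libraries, with RNA quality numbers of 6.4 to 8.4 per the labels. The authors demultiplexed reads with bcl2fastq, trimmed them with cutadapt 1.8, aligned them with STAR 2.5.3a and counted them per gene with HTSeq 0.9.1, and the deposited values are raw counts per gene and mouse (build GRCm38 per the labels). Between 6.80% and 9.75% of unique reads fell in no gene and were left out.

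Counts were analysed in R 4.3.3 with the edgeR 4.0.16 quasi-likelihood test, TMM scaling and a mean for each of the 8 groups, on the 15546 genes that reached 1 cpm in any of the mice, with Benjamini-Hochberg adjustment and a threshold of 0.05. Contrasts weighted the sexes, or for sex the genotypes, equally. Each mouse was 1 sample. The 10 members and the gene lists were chosen with earlier results of these data known. Besides the members and Ppard, each list named its 3 called genes with the largest UV change in WT mice, any list gene called for a genotype difference or interaction, and the gene most like each member. Padi2, Prss8, Capn1, Pcsk6 and Klk5 were named after their values were seen. Alternatives were other scalings, filters, limma 3.58.1, DESeq2 1.42.0, a minimum fold of 1.5, each sex alone, leaving out each mouse and, added after seeing the data, leaving out the muscle-rich mice. The scripts were tested on simulated data. Gene positions came from GENCODE on GRCm38. The number of reads limits the precision of low genes, above all Padi1 and Padi3.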

Additional observations from a re-analysis of the deposited data

Results flagged for a closer look

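Of 80 groups of 4 mice, 6 held a mouse farther from the others than Dixon's limit for the gap over the range of 4 values, and chance gives about 1 in 20. Tgm1 was low in 1 male WT UV mouse (838 cpm, against 1008 to 1014 in the others), and Tgm5 was low in 1 female KO Control mouse (99.9 cpm, against 112 to 113). Padi3 was high in 1 female WT Control mouse (4.16 cpm, against 0.148 to 0.475) and in 1 male KO Control mouse (7.39 cpm, against 0.283 to 1.079), and low in 1 male WT UV mouse (0.945 cpm, against 2.31 to 2.47). Krtdap was low in 1 male WT Control mouse (3249.97 cpm, against 3727 to 3824).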

How the results depend on the processing

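No paired analysis was possible because the labels give no replicate numbers, so those used here only name the mice. Of 2970 values recomputed under alternatives, 2829 kept direction and side of the threshold, 14 lost and 25 gained a call, and 102 changed sign, none of them called in the test reported. The number of members higher with UV in KO mice became 2 with upper-quartile scaling, with DESeq2 and without the muscle-rich mice, through Tgm3. With a minimum fold of 1.5, UV raised 1 and lowered 2 members in WT and lowered 3 in KO mice, where the number raised was unchanged. DESeq2 called 2 members lower for the genotype by UV interaction and 2 for sex without UV. In females alone, UV raised 1 and lowered 2 members in WT mice, and 3 were lower in KO mice after UV. Without the muscle-rich mice, 1 member was lower in KO females after UV. Leaving out 1 mouse gave 1 to 2 members higher with UV in KO mice, 0 to 2 lower for the interaction, 0 to 1 for sex without UV, 1 to 6 lower in KO females after UV and 0 to 4 for females minus males. The shares of all genes called under these alternatives are not given, so the counts of members have no background beside them. The cause of these shifts was not tested.

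The log2 values that changed sign were these. The UV change of Sbsn in WT mice was 0.015252 with RLE scaling, 0.015253 with DESeq2, 0.070335 in females and 0.10141 without the muscle-rich mice, and ran from -0.042936 to 0.070625 without 1 mouse. That of Padi3 was -0.3508 in WT males, and in KO mice -0.14066 with limma, -1.3177 in females, -1.6478 without the muscle-rich mice and -0.59511 to 0.93681 without 1 mouse. For genotype without UV, males alone gave 0.065612 for Casp14, 0.43671 for Padi1 and -0.14214 for Padi3, and leaving out 1 mouse gave -0.060168 to 0.024568 for Casp14 and -0.41155 to 1.4102 for Padi3. For genotype after UV, Krtdap was 0.0046205 with upper-quartile scaling and 7.1698e-05 with sex as an added term. Males alone gave 0.063621 for Casp14, 0.21257 for Asprv1, 0.49914 for Padi1, 1.8947 for Padi3, 0.22695 for Krtdap, 0.089954 for Sbsn and 0.23889 for Dmkn. Tgm3 was 0.11431 without the muscle-rich mice, and without 1 mouse Tgm3 ran from -0.20038 to 0.048157 and Krtdap from -0.1131 to 0.021057. The interaction in males was 0.062427 for Padi1 and 2.0368 for Padi3. For sex without UV, Padi1 was 0.022264 with upper-quartile scaling, 0.22485 without the muscle-rich mice and -0.21091 to 0.12069 without 1 mouse, and Padi3 ran from -1.5696 to 0.27727. For sex by UV, Tgm5 and Padi3 were -0.011809 and -0.0048813 with upper-quartile scaling. Tgm1, Tgm5 and Padi3 were -0.0074043, -0.026766 and -0.010832 with no filter, and -0.013918, -0.03201 and -0.014471 with filterByExpr. Padi3 was -0.82717 with limma, and Tgm5 and Sbsn were -0.071294 and 0.060382 without the muscle-rich mice. Without 1 mouse, sex by UV ran from -0.049997 to 0.090135 for Tgm1, -0.080457 to 0.093521 for Tgm5, -0.8101 to 1.0627 for Padi3 and -0.17265 to 0.011702 for Sbsn.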
